A study of Caenorhabditis elegans with 2 samples.

Results

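The 5 genes described here are xol-1, the X signal elements sex-1 and fox-1, and the autosomal signal elements sea-1 and sea-2, of 19973 protein-coding genes in the annotation. They were chosen by name from the X-counting step of sex determination, and every peak with a summit within 10 kb of each gene body was taken from 4 deposited ce11 peak lists of a ChIP-seq experiment on the homeobox protein CEH-39. The material was whole mixed-stage embryos of Caenorhabditis elegans strain OP169, which carries unc-119(ed3) on chromosome III and the transgene wgIs169 that tags CEH-39 with eGFP. Per the labels the embryos were of both sexes, and the 2 biological replicates form 1 group; there was no other genotype or treatment to compare. The labels do not name the promoter of the transgene, and whether an untagged copy of the gene was also active is not given.

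Worms count their X chromosomes to choose their sex. Proteins encoded on X (X signal elements, among them CEH-39 itself, the nuclear receptor SEX-1 and the RNA-binding protein FOX-1) lower the output of the switch gene xol-1 in XX embryos, while autosomal signal elements (the T-box protein SEA-1 and the zinc-finger protein SEA-2) raise it. High xol-1 gives male development; low xol-1 lets the hermaphrodite programme and X-chromosome dosage compensation proceed. ONECUT proteins such as CEH-39 are known to bind the core ATTGAT and its palindromic form ATCGAT, and FOX-1 acts on xol-1 mainly through splicing.

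The peak lists were of 4 kinds. The authors' IDR set (irreproducible discovery rate) held 1244 peaks, the 1244 strongest of the pooled list; 1238 overlapped a peak of replicate 1 and 1182 a peak of replicate 2, at ranks that could lie far apart. The relaxed list of the pooled replicates held 30000, that of replicate 1 held 30000 and that of replicate 2 held 27014; these relaxed lists are made to include background. A peak's strength is the authors' deposited signal value, of a scale that neither the labels nor the files name, so values are compared within a list and ranks (1 is the strongest) across lists. A q-value below 0.05 was given to 2698 pooled peaks, 3958 of replicate 1 and 790 of replicate 2. Within 10 kb of the 5 genes lay 6 IDR peaks, 81 pooled peaks (9 with q below 0.05), 76 peaks of replicate 1 (13) and 61 of replicate 2 (2). Read depth is unknown, and no test across samples was possible with 1 group.

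The sequences at the 6 IDR summits, and at the strongest sea-1 peak, are shown because the positions turn on them. All are ce11, plus strand, read from the RefSeq genome of the same assembly; capitals mark the palindromic ONECUT core ATCGAT. The xol-1 peak is printed whole (X:8036323-8036506), and the others as the summit base with 50 bases on either side.
xol-1, 4905 bp upstream: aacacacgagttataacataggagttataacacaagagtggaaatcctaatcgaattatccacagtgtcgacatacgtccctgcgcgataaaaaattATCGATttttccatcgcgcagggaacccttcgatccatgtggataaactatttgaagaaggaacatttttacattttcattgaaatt
sex-1, second intron (X:10204437-10204537): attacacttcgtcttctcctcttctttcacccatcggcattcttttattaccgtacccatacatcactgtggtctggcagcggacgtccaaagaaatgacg
sex-1, downstream at nucb-1 (X:10197450-10197550): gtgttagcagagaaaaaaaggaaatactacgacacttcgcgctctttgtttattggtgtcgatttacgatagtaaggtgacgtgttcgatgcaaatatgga
fox-1, first intron (X:2452874-2452974): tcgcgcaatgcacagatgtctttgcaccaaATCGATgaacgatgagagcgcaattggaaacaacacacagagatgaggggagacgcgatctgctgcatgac
sea-2, second intron, stronger (II:3957628-3957728): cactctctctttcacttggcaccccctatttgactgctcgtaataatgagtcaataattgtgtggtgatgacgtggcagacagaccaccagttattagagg
sea-2, second intron, weaker (II:3956115-3956215): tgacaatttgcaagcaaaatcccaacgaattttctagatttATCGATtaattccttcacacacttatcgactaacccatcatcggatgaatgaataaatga
sea-1, strongest pooled peak (II:3681820-3681920): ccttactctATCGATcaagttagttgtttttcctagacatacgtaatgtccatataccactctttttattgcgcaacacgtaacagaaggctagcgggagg

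CEH-39 peaks of the IDR set lay near 4 of the 5 genes, and 0 of the 5 had a summit in a promoter window, defined as 1000 bp upstream to 200 bp downstream of any annotated start. Across all protein-coding genes 26.9% had an IDR summit within 10 kb and 6.48% had a promoter summit. By chromosome, 3 of 3 genes on X had a nearby IDR peak, against 28.1% of X genes, and 1 of 2 on chromosome II, against 27.1% of its genes. With 2 or more IDR summits within 10 kb there were 2 of 5 genes (sex-1 and sea-2), against 5.91% of all genes, and 4 of 5 had a pooled peak with q below 0.05 within 10 kb, against 45.9%. Inside their own gene lay IDR summits of sex-1, fox-1 and sea-2, which is 3 of 5 genes against 1.32% of all genes; long genes have more room, and of genes of 10 kb or longer 6.51% had one, with fox-1 and sea-2 being 2 of 2 in that class. Of genes shorter than 10 kb, 1.05% had one, and sex-1 was 1 of 3. In the whole IDR set 75% of summits were in promoter windows and 8.44% in introns. Relaxed pooled peaks did occur in the promoter windows of 4 of the 5 genes, against 43.7% of genes, but 0 of them had q below 0.05, against 12.5%. In the replicate 1 list, promoter-window peaks did pass q below 0.05 at sex-1 and sea-2. That of sex-1 lay 810 bp upstream of its start (signal 34.0, −log10 q 2.23). That of sea-2 (31.0, 1.86) lay inside the gene, 13326 bp from its first start and 637 bp upstream of an internal one. The share of all genes with such a peak in replicate 1 was not counted.

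**Figure D1:**
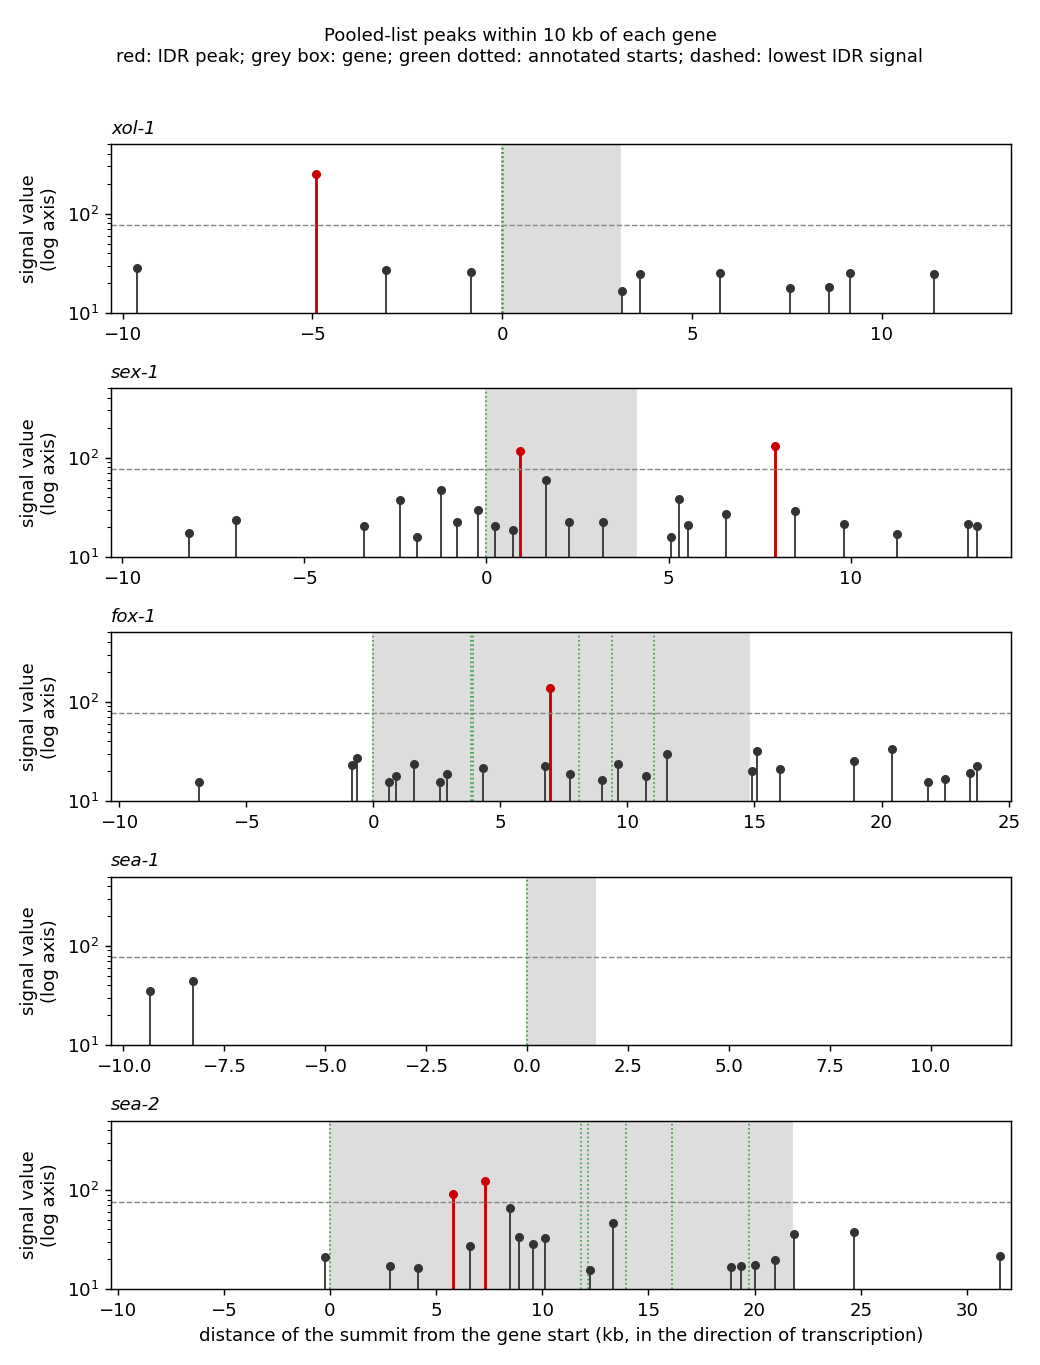
Signal value (log axis) of each pooled-list peak within 10 kb of the 5 genes, against the distance of its summit from the gene start in the direction of transcription. IDR peaks are red, the gene is the grey box, annotated starts are dotted green lines, and the dashed line is the lowest IDR signal, 76.5; the xol-1 peak stands upstream of its gene at 252, the fox-1 and sea-2 IDR peaks stand inside theirs, and sea-1 has none.

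The switch gene xol-1 (WBGene00006962; X, 8041313 to 8044409, plus strand) had 1 strong peak and otherwise weak ones. The strong peak had a signal value of 252 and rank 76 in the pooled list, 154 and rank 158 in replicate 1, and 83.1 and rank 26 in replicate 2. Its replicate 2 summit was at the pooled summit, and that of replicate 1 lay 41 bp away. The next of its 11 pooled peaks had a signal of 28.3 and rank 7210, and the weakest had 16.5 and rank 26492. That second peak lay 9620 bp upstream, nearest to the start of C34D10.1, with rank 12807 in replicate 1 and no overlapping peak in replicate 2. The one after it lay 3058 bp upstream of xol-1, with a signal of 27.2, rank 7911, rank 5678 in replicate 1 and again no overlapping peak in replicate 2. In the replicate lists the strong peak was followed by a peak of 22.1 in replicate 1 and of 18.5 in replicate 2. At 184 bp the peak was narrow; 8.60% of IDR peaks were as narrow or narrower, and of the 100 strongest IDR peaks 88 were narrower than the common width of 350 bp. A tRNA gene lay 277 bp from the summit, within 500 bp as for 2.81% of IDR summits; its part in the signal was not tested.

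At the xol-1 promoter the lists gave weak and shifting peaks. The signals there were 25.8 (pooled), 19.0 (replicate 1) and 12.4 (replicate 2), with −log10 q-values of 0.0987, 0.448 and 0.0561, all short of a q-value of 0.05. The ONECUT core ATTGAT was common around the gene, with 32 sites in the window of the gene plus 10 kb on either side. None of the 32 lay within 50 bp of an IDR, pooled or replicate 2 summit, and 1 lay within 50 bp of a summit of replicate 1, at 22 bp. Both upstream sites in the promoter window are shown with their neighbours, the core in capitals and read here on the strand that spells it ATCAAT.
xol-1, 908 bp upstream (X:8040393-8040422): attctcatctcaATCAATgagatttcccag
xol-1, 688 bp upstream (X:8040613-8040642): ataaattttattATCAATtctcattgttaa
The palindromic core ATCGAT was rarer, with 5 sites around xol-1, and 1 of them, 14 bp from the summit, lay under the strong peak.

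The nuclear receptor gene sex-1 (WBGene00004786; X, 10201329 to 10205421, minus strand) had 24 pooled peaks, 4 of them with q below 0.05, and 2 IDR peaks. The stronger by signal, 130 and rank 408, lay 7921 bp downstream of the sex-1 start and 206 bp upstream of the start of nucb-1, a nucleobindin gene, in the promoter window of that neighbour. It had rank 466 in replicate 1 and 375 in replicate 2, with summits 14 and 0 bp from the pooled one. The peak inside sex-1 itself, in intron 2 of 7 (X, 10204018 to 10204940), was 934 bp downstream of the start with a signal of 117 and rank 526. Replicate 1 placed its summit at the same base with rank 461, whereas replicate 2 placed it 186 bp away with rank 1088 and a −log10 q of 0.934. A further peak in the gene, 1634 bp from the start, had a signal of 59.1, rank 1941 and a −log10 q of 2.55 but was not in the IDR set. It ranked 1827 in replicate 1 and 5170 in replicate 2. Neither IDR window held ATCGAT or ATTGAT.

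The splicing regulator gene fox-1 (WBGene00001484; X, 2445117 to 2459893, minus strand) had 25 pooled peaks, of which 1 had q below 0.05. That peak, also its IDR peak, had a signal of 139 and rank 348, and lay 6969 bp downstream of the first of 6 annotated starts and 1116 bp upstream of an internal start. In the transcript from the first start it falls in intron 1, of 9289 bp. Replicate 1 had a signal of 110 and rank 381 there, replicate 2 a signal of 24.2 and rank 937, with summits 22 and 2 bp from the pooled one. It held ATCGAT. The next pooled peaks near the gene were much weaker, with signals of 33.6 and 32.3 and ranks 4768 and 5228, and neither overlapped a peak of replicate 2. They lay past the end of fox-1, 530 bp upstream of gid-2 and 1373 bp upstream of T07D1.3, with ranks 3585 and 4587 in replicate 1. Since the peak was just beyond 1000 bp from the internal start, a promoter window of 2000 bp upstream would count fox-1 as bound, the 1 change among the window settings for these 5 genes.

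The T-box gene sea-1 (WBGene00004750; II, 3671908 to 3673593, minus strand) had the fewest peaks of the 5 genes in each list, with 0 IDR peaks, 2 pooled, 2 in replicate 1 and 3 in replicate 2. The stronger pooled peak had a signal of 44.0, rank 3002 and a −log10 q of 1.00, and lay 8277 bp upstream of sea-1 and 455 bp upstream of F19B10.10. Replicate 1 had a signal of 45.4, rank 2029 and a −log10 q of 3.65 there, so it passed q below 0.05 in that list alone. Replicate 2 had 13.2, rank 8525 and a −log10 q of 0.0729, with its summit 196 bp away. The weaker, with a signal of 35.1 and rank 4357, lay 264 bp upstream of F19B10.1 and was ordered the other way, at rank 8656 in replicate 1 and 2278 in replicate 2. Although sea-1 had 11 ATCGAT sites within its window, more per kb (0.507) than around the other 4 genes (0.215 to 0.259), 1 of them lay within 50 bp of a pooled summit.

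The zinc-finger gene sea-2 (WBGene00004751, II, 3950377 to 3972140, plus strand) carried a run of peaks inside an intron of 10355 bp (II, 3951334 to 3961688). It is the second intron in transcripts from the first of 6 annotated starts. Other sea-2 transcripts start downstream of it, and the stronger IDR peak lay 4545 bp upstream of the nearest such start. The stronger IDR peak had a signal of 125 and rank 451 and the weaker 92.0 and rank 885, within 2 kb of each other. Genome-wide 112 of the 1244 IDR summits had another that close. Of the genes of 10 kb or longer 1.4% held 2 or more, and sea-2 was 1 of 2 in that class. The next pooled peak in the intron, with a signal of 65.9, rank 1621 and a −log10 q of 3.52, was not in the IDR set; it ranked 2117 in replicate 1 and 1558 in replicate 2. Here the replicates diverged. Replicate 1 ranked the IDR peaks 402 and 704, and replicate 2 ranked them 5490 and 4717, with signals of 14.9 and 15.5 and −log10 q-values of 0.137 and 0.171. The strongest replicate 2 peak near sea-2 had a signal of 21.6 and rank 1384 and lay at another place in the intron, 8936 bp from the start. Among the top 1244 of replicate 2 there was no peak within 10 kb of sea-2, so that set left 3 of the 5 genes with a nearby peak. The weaker IDR peak held ATCGAT and the stronger held none.

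**Figure D2:**
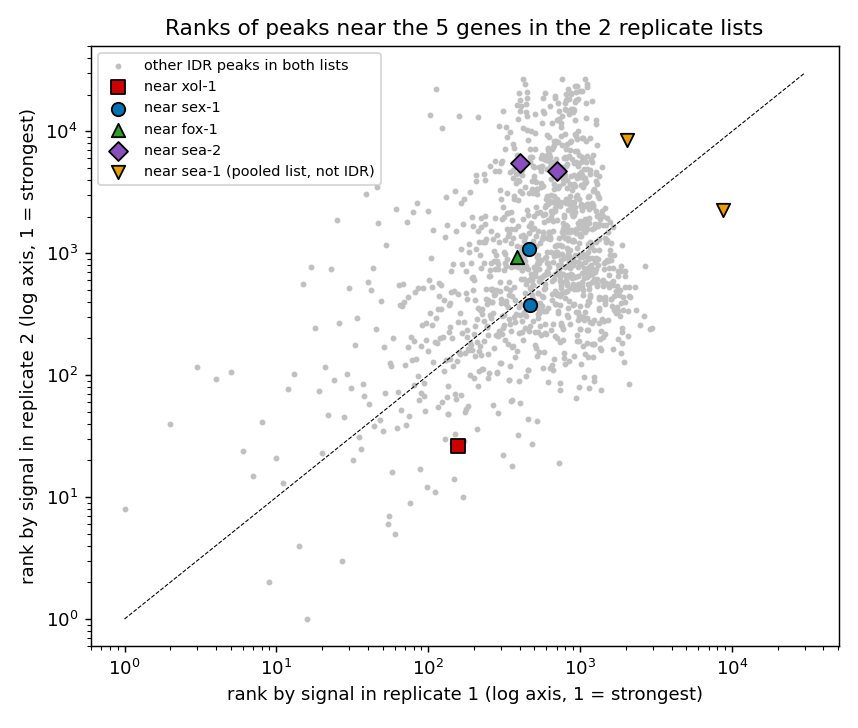
Rank by signal value in replicate 1 against replicate 2 (log axes) of every IDR peak found in both replicate lists, with the IDR peaks near the 5 genes as large symbols and the 2 sea-1 pooled peaks added. The dashed line marks equal ranks; the xol-1 peak is below it at 158 and 26, and both sea-2 peaks are far above it.

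By order of the strongest pooled peak the genes ran xol-1 (252), fox-1 (139), sex-1 (130), sea-2 (125) and sea-1 (44.0). For fox-1, sex-1 and sea-2 the best ranks in replicate 1 were 381, 461 and 402, and their order differed between lists, whereas xol-1 led and sea-1 trailed in the pooled list and in both replicates. Replicate 2 ranked higher than replicate 1 for 2 of the 6 IDR peaks, against 37.6% of the 1176 IDR peaks found in both. The relaxed pooled peaks, which include the 6 IDR peaks, overlapped replicate peaks less often than the IDR set did. Both lists were made from these same replicates, and the IDR set by agreement between them. The shares are therefore no independent support. Of the 81 pooled peaks 34, or 42.0%, overlapped a peak in both replicates, against 36.05% in the whole pooled list and 94.5% in the IDR set. When summits had to lie within 100 bp in both, the count was 17, or 20.99%, against 19.59% of the whole list. The share by overlap ran from 5 of 25 at fox-1 to 15 of 24 at sex-1.

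Peak density differed among the genes. Pooled peaks numbered 9.96 per 10 kb of window at sex-1, 7.19 at fox-1, 4.76 at xol-1, 4.55 at sea-2 and 0.922 at sea-1, against a median of 2.74 over all protein-coding genes. In replicate 2 fox-1 had 3.16, near the median of 2.63, while sex-1 had 7.47 and sea-2 had 5.03. The count at sex-1 was exceeded by 0.146% of X genes in the pooled list and 0.293% in each replicate list. The fox-1 and sea-2 genes are long, and genes of 10 kb or longer had a pooled median of 3.28 per 10 kb. Among these 998 genes the density at fox-1 was exceeded by 1.70% in the pooled list, 6.11% in replicate 1 and 33.9% in replicate 2. For sea-2 the shares were 23.1%, 30.6% and 4.31%. These are counts in lists that hold background by construction, and 9 of the 81 had q below 0.05.

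**Figure D3:**
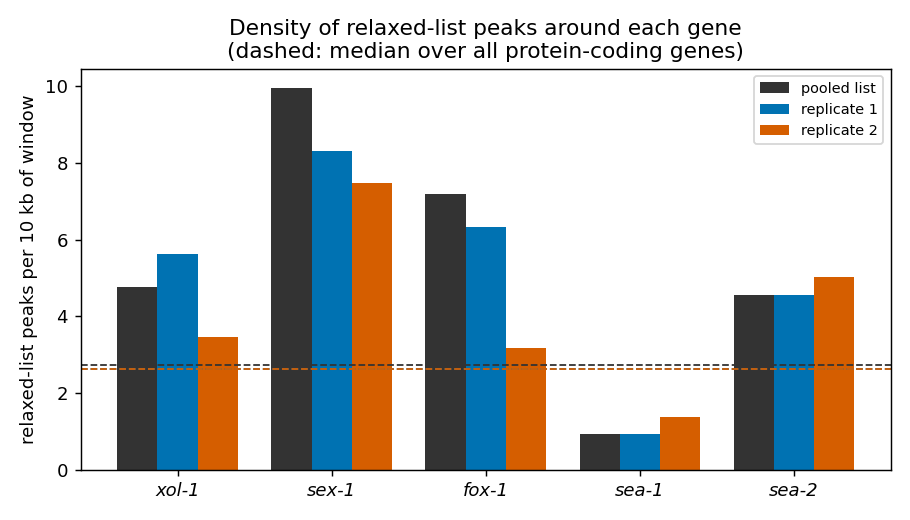
Peaks per 10 kb of the gene plus 10 kb on either side, in the 3 relaxed lists, for the 5 genes. Dashed lines are medians over all protein-coding genes (2.74, 2.64 and 2.63); sex-1 is highest in all 3 lists and sea-1 lies under the median in all 3.

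The palindromic core was more frequent at the IDR peaks of these genes than at their relaxed peaks. ATCGAT was within 50 bp of the summit in 3 of the 6 IDR peaks (xol-1, fox-1 and sea-2), against 17.4% of all IDR peaks and 3.34% of genome windows of that length. Among all 81 pooled peaks it was in 5, near the 5.76% of the whole pooled list. Read from the sites, 3 of 40 ATCGAT sites around the 5 genes, or 7.5%, lay within 50 bp of an IDR summit, against 0.741% of those in the genome. These are sites of the same 3 peaks. The windows are also rich in IDR peaks, which puts any sequence there near a summit more often. All but sea-1 had 0.288 to 0.830 IDR peaks per 10 kb. The chromosome figures are for a longer stretch, at 1.23 per 100 kb on X and 1.28 per 100 kb on chromosome II. Of 137 ATTGAT sites 0 lay within 50 bp of an IDR summit, against 0.0775% of those in the genome, a share too small for 0 to be informative. By windows, ATTGAT was in 0 of the 6 IDR peaks, against 5.87% of all IDR peaks and 10.4% of genome windows. In the whole IDR set it was thus rarer at summits than in genome windows. Other words were also frequent at IDR summits. ACGCAG was in 19.5% of all IDR windows, against 1.91% of the genome, and in 0 of the 6. GAGAGA was in 25.3%, against 5.18%, and in 1 of the 6. The windows at IDR summits had a median GC content of 47.5%, and none of these shares was adjusted for base composition. With 6 peaks, none of these shares is precise, and a match of letters is no evidence of a bound site.

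The xol-1 peak had a feature that the other 5 IDR windows lacked, a perfect inverted repeat. Its arms are 12 bases each, with a spacer of 20 bases that holds the ATCGAT core, so the core sits between the arms.
left arm (X:8036400-8036411): TCCCTGCGCGAT
right arm (X:8036432-8036443): ATCGCGCAGGGA
Inverted repeats as such are not rare, since 4.58% of IDR windows and 5.47% of flanking windows held one with arms of at least 9 bases and a spacer of at most 60; with arms as long as these there were 6 of 1244. The arm itself was then searched in the whole genome, a query chosen after the peak's sequence had been seen. It occurred at 11 sites, 10 of them on X, a chromosome that makes up 17.7% of the genome. Away from xol-1, 6 of 9 sites lay within 100 bp of an IDR summit, against 0.249% of the genome, and these were 6 separate peaks at ranks 33, 47, 67, 111, 122 and 129. All 6 are on X. The site on chromosome V was 29416 bp from the nearest IDR summit.

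Matches with mismatches were counted in the same way. Of 28 sites with 1 mismatch on X, 9 lay within 100 bp of an IDR summit, and of 45 on the autosomes 0 did. With 2 mismatches it was 7 of 310 on X and 8 of 1426 on the autosomes. The letters of the arm are close to those of MEX, a motif known from recruitment elements on X that load the dosage compensation complex; no list of such elements was used here, and whether these peaks are such elements was not tested.

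**Figure D4:**
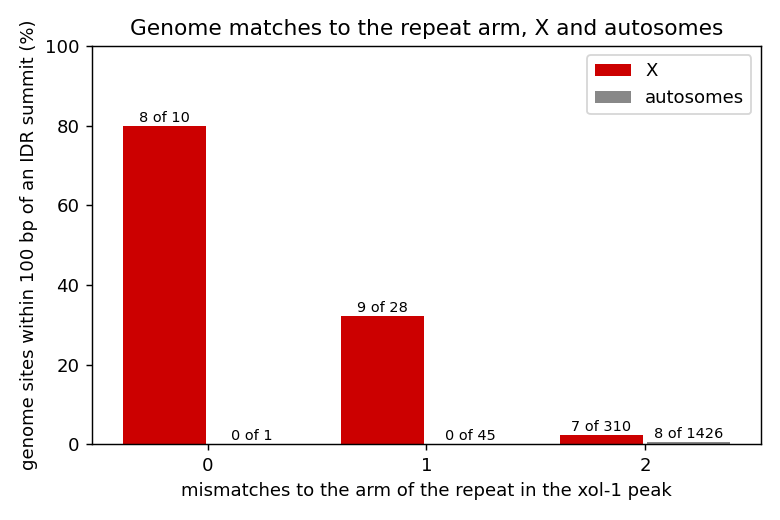
Share of genome sites within 100 bp of an IDR summit, for matches to the repeat arm with 0, 1 or 2 mismatches, on X (red) and autosomes (grey), with counts above the bars. The 8 of 10 exact X matches include both arms of the xol-1 peak, from which the query was taken.

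For comparison, 11 other X genes without an IDR promoter summit had an IDR peak whose summit lay 3000 to 7000 bp upstream of their start, with that start the nearest, and 0 of them had a higher signal than the xol-1 peak. Those closest to it in signal were at K02D3.1 (250, rank 79), W10G6.1 (229, rank 107) and cest-16 (225, rank 111), the last named as a carboxylesterase gene. K02D3.1 was also alike in the replicates, at ranks 143 and 28. Its window held no match to the arm within 4 mismatches, while that of cest-16 held an exact one together with ATCGAT, as the xol-1 window did. The arrangement differed, since at cest-16 the core was not within 50 bp of the middle of the arm. The likeness was by chromosome, distance and signal value over the 2 replicates pooled.

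Of 18 other genes of sex determination and dosage compensation, 4 (22.2%) had an IDR promoter summit, against 6.48% of all genes, and 10 had an IDR summit within 10 kb, against 26.9%. All 4 encode parts of the dosage compensation machinery, as do many other genes of the list. The 4 were dpy-30 (signal 144), which also serves histone methylation, and the condensin-related dpy-27 (94.8), dpy-26 (83.8) and mix-1 (82.6). Of the same machinery, dpy-21, dpy-28 and capg-1 had no IDR promoter summit. Replicate 2 put mix-1 at rank 564 and dpy-30 at 840 but dpy-27 and dpy-26 at 7429 and 6177, outside the strongest 1244 of its peaks. Counting instead the top 1244 of replicate 1, promoter summits were found at dpy-26, dpy-27 and dpy-30, and from the same number of replicate 2 peaks at dpy-30, mix-1 and fem-1. In the 622 strongest IDR peaks the count was 1, dpy-30. The genes sdc-1, sdc-2 and sdc-3, which direct the complex to X and act below xol-1, had 0 IDR promoter summits; sdc-1 had a pooled one at a signal of 51.4 with a −log10 q of 1.62. The feminizing receptor gene tra-2 had no IDR promoter summit and 4 IDR peaks within 10 kb, the most of the 18, and ceh-39 itself had 3. More than 2 were near 0.754% of genes on chromosome II, which holds tra-2, and 0.842% on X, which holds ceh-39. The gene tra-2 was picked from the 18 for its high count. The strain also carries the tagged gene in the transgene wgIs169, and the part of the transgene in the signal at ceh-39 was not tested.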

How the data were processed

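The authors called peaks in each replicate and in the pooled replicates against a control that was not analysed here, and derived the IDR set from those lists, per the deposited description files. The labels and files name no aligner, caller or version. The deposited values are a signal value, whose scale is not given, and a −log10 q-value per peak. Builds are ce11 and ce10 per the labels; ce11 equals WBcel235, and genes came from Ensembl release 115. Read counts were not used here, so depth is unknown.

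The genes, gene lists and counting rules were chosen with earlier results of these data known. Positions are numbered from 1. A pooled peak was found in a replicate if it overlapped by at least 1 bp. Motifs were counted on both strands within 50 bp of the summit. Named genes were those with IDR peaks or among the 3 strongest pooled peaks, and bound pathway genes. Also named were ceh-39 and the 3 X genes most like xol-1. The genes sdc-1, sdc-2, sdc-3, dpy-21, dpy-28, capg-1, tra-2 and fem-1 and the repeat arm were chosen after their values were seen. No test was run. Functions were tested on simulated data. Python 3.11.15, numpy 2.4.6 and pandas 2.3.3 were used.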

Additional observations from a re-analysis of the deposited data

How the results depend on the processing

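The count of 6 IDR peaks ranged from 4 to 8 under the settings tried. It was 4 with the top 1244 of replicate 2, where sea-2 had 0 and 3 of 5 genes had a nearby peak, and 5 in the stronger IDR peaks, where sea-2 had 1. Members with a promoter summit went from 0 to 1 (fox-1) with 2000 bp upstream. The pathway count fell from 4 to 1 in the stronger IDR peaks. Pooled peaks in both replicates went from 34 to 17 when summits had to lie within 100 bp. Peaks with ATCGAT went from 5 to 3 within 25 bp, and lay between 3 and 6 with either replicate list alone. The rank of each gene's strongest peak, as percent of its list, was judged by the SD of the 2 replicate values themselves. That SD is small where the replicates are close, so the counts are no measure of robustness. By it 5 of 10 comparisons with a replicate list alone moved (sex-1, fox-1, sea-2 and, in both, sea-1). For sex-1 the move was from 1.36% to 1.54% in replicate 1, while xol-1, from 0.253% to 0.527%, did not count as moved. Of 9 changes of distance 0 moved. At 5 kb sea-1 had no pooled peak, and that setting was not counted. The X sites of the repeat arm near IDR summits, an alternative chosen after seeing the data, were 8, with 6 within 50 bp and 8 with either replicate alone. No paired analysis was possible because there was 1 group. Unknown depth limits all weak peaks, and the cause of these changes was not tested.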
